A study of Mus musculus with 12 samples.

Results

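Voltage-gated sodium and calcium channel genes were taken from a mouse RNA sequencing table as every gene whose symbol names a sodium channel alpha or beta subunit, a calcium channel alpha1, alpha2delta or beta subunit, or a member of the gamma family. The rule found 39 genes among 23253. Of these, 9 encode sodium channel alpha subunits, 4 sodium channel beta subunits, 10 calcium channel alpha1 subunits, 4 alpha2delta subunits, 4 calcium channel beta subunits and 8 gamma family members. The gene listed under the older symbol Scn2a1, the alpha subunit now called Scn2a, is not matched by the rule and is reported with the channel partners.

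There were 12 libraries in 4 groups of 3, all of total RNA from cortical cells labelled as neurons sorted by flow cytometry, and all from C57BL/6 mice as far as the labels say. Adult control libraries are labelled as controls without a stroke. In the stroke group, adult mice received the dye rose bengal and 15 min of cold light through the exposed skull, which makes a focal cortical stroke 2 mm across. The third group had the same stroke together with a small interfering RNA (siRNA) against Gdf10, a secreted growth and differentiation factor. The fourth group is labelled only as P4 animal control, and the growth field repeats the word adult for it. The labels do not define P4 as an age, give the time between stroke and tissue collection, name the dose or route of the siRNA or a control siRNA, or say whether the 3 replicates of a group came from separate animals. P-values therefore measure the spread between libraries, which may be technical.

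Voltage-gated sodium channels open on depolarisation and carry the rising phase of the action potential; one large alpha subunit forms the pore, and beta subunits set its gating and anchor it in the membrane. Voltage-gated calcium channels turn the same depolarisation into calcium entry. Their alpha1 subunits fall into the L-type channels of soma and dendrites, the P/Q-, N- and R-type channels that trigger transmitter release, and the T-type channels that open near the resting potential and favour burst firing. The alpha2delta and beta subunits bring alpha1 to the cell surface. Most gamma family members are transmembrane AMPA receptor regulatory proteins (TARPs), which traffic AMPA-type glutamate receptors and are named for their likeness to the muscle calcium channel subunit encoded by Cacng1. In rodent cortex Scn3a and Scn3b are known as early-expressed subunits, whereas Scn1a, Scn8a and Scn2b are known from mature neurons.

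Total counts ran from 10517638 to 48633350 per library. Adult control 3 was the shallowest, and it was far from the other 11 libraries in a principal component plot of all genes. Gdf10 had 15, 21 and 0 counts in adult control, 0, 5 and 0 in stroke, 8, 7 and 1 where the label names GDF10 siRNA, and 189, 241 and 33 in P4. Stroke libraries already had 5 counts of the targeted transcript or fewer, and siRNA-labelled ones had no fewer, so a knockdown cannot be read from these counts. The labelled cell type was checked with marker lists. In all 3 adult groups the 10 oligodendrocyte markers took more of the counts than the 12 pan-neuronal markers, with means of 5.63% against 0.44% in adult control. The same pair of means was 5.7% and 0.181% in stroke, and 8.7% and 0.229% in siRNA-labelled libraries. In P4 the order was the opposite, with 0.0181% against 0.749%. Replicate numbers 1 to 3 are used for adult control and siRNA-labelled libraries, and 4 to 6 for the rest. If these numbers mark a preparation, preparation and group cannot be told apart in 3 of the 4 comparisons.

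The channel genes together took 0.145% to 0.214% of all counts in adult control and 0.359% to 0.407% in P4. Stroke libraries gave 0.109% to 0.138%, and siRNA-labelled ones 0.106% to 0.154%. Levels are given in CPM, that is, read counts divided by the TMM-adjusted depth of the library, and TMM factors allow for differences in RNA composition. By group mean, 22 of the 39 genes were highest in P4, 12 in adult control, 3 after stroke and 2 with the siRNA label. To compare genes with each other, CPM was divided by the length of all annotated exons in kilobases. On that per-length scale Cacnb4 led in adult control at 58.8 ± 32.9 CPM per kb (SD, n = 3), followed by Cacng7 at 32.8 ± 16.4 and Cacna2d1 at 24.2 ± 12.5, and these neighbours overlapped within their spread. The same 3 genes led in the siRNA-labelled group. In stroke Cacng7 at 44.2 ± 7.22 CPM per kb and Cacnb4 at 32.9 ± 7.92 were followed by Cacng5 at 13.1 ± 1.01. In P4 the order began with Cacna2d1 at 60.4 ± 28.1, Scn3b at 54.4 ± 12.6 and Cacna1b at 47.7 ± 6.19 CPM per kb, which did not differ beyond their spread. Annotated exons include rarely used ones, so a gene with long alternative exons such as Cacna1e (25.2 kb) is placed lower than its used transcripts would be. At the other end, Scn4b, Cacng8, Cacng1 and Cacng6 stayed below 5 CPM in every group mean.

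**Figure D1:**
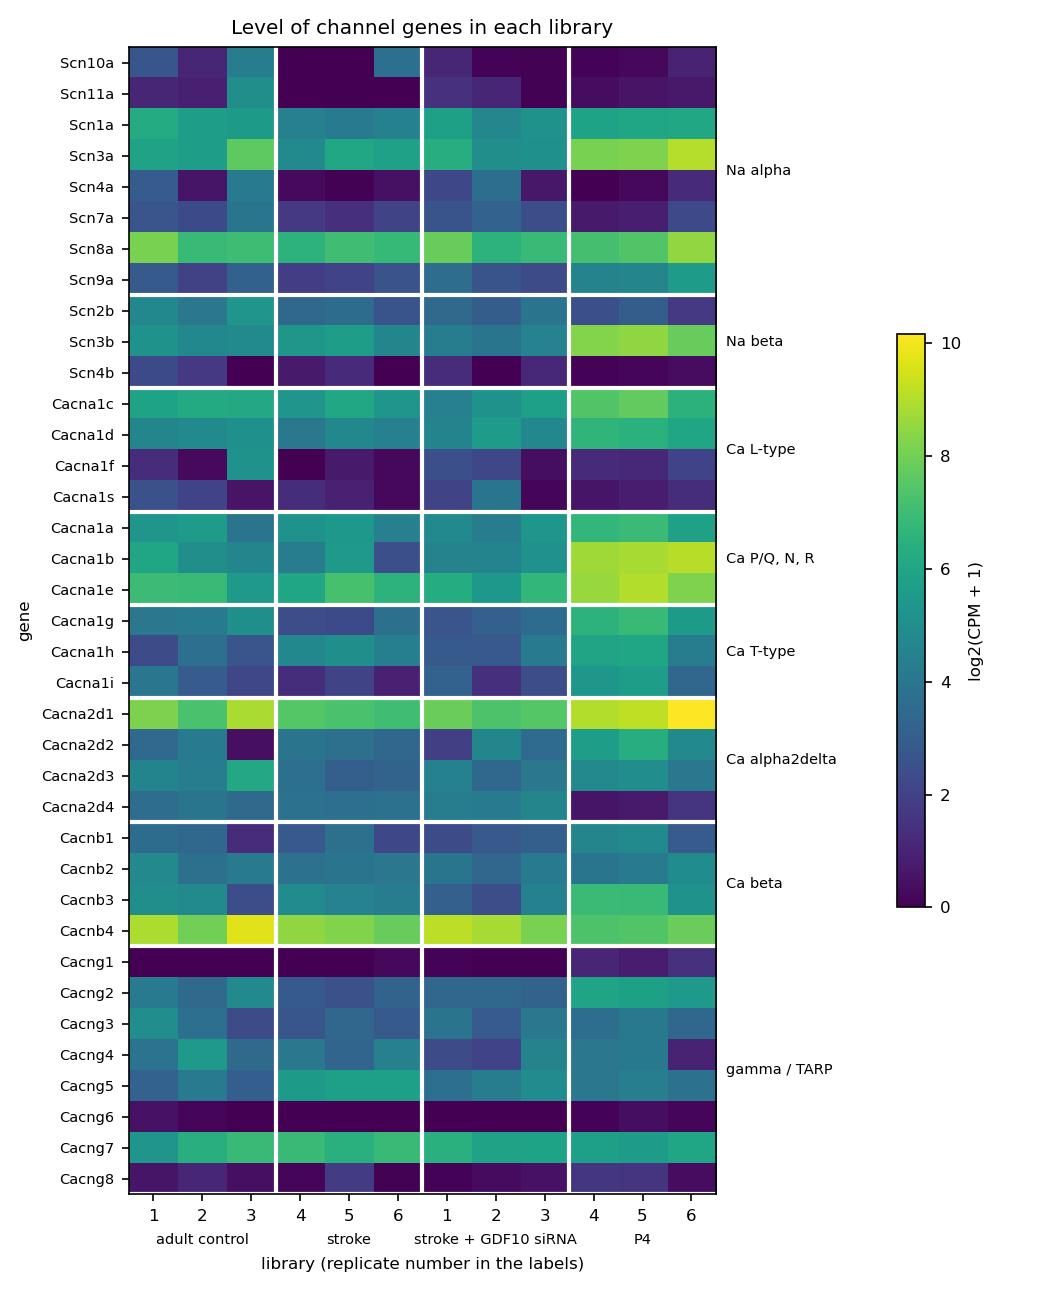
Level of the channel genes reported here in each of the 12 libraries, as log2(CPM + 1) in colour, with genes in rows by subunit class and libraries in columns by group. The 3 P4 columns are brighter than the other 9 for Scn3a, Scn3b, Cacna1b, Cacna1e and Cacna2d1 and darker for Cacna2d4, and adult control 3 differs from adult control 1 and 2 for Scn11a and Cacna1f.

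Differences between groups were tested with edgeR's quasi-likelihood F test on all 17909 genes that passed a filter on low counts, and a gene was called where the Benjamini-Hochberg adjusted p was below 0.05. The filter kept 38 of the 39 channel genes and removed Cacng6, which had 14 counts in all of adult control and 0 in every adult stroke library with or without siRNA. Cacng1 and Scn11a were each at 0 counts in every library of one group. For these 2 genes the fitted fold change depends on a small added count, so lower bounds are given instead, computed against 3 counts over the whole group.

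**Figure D2:**
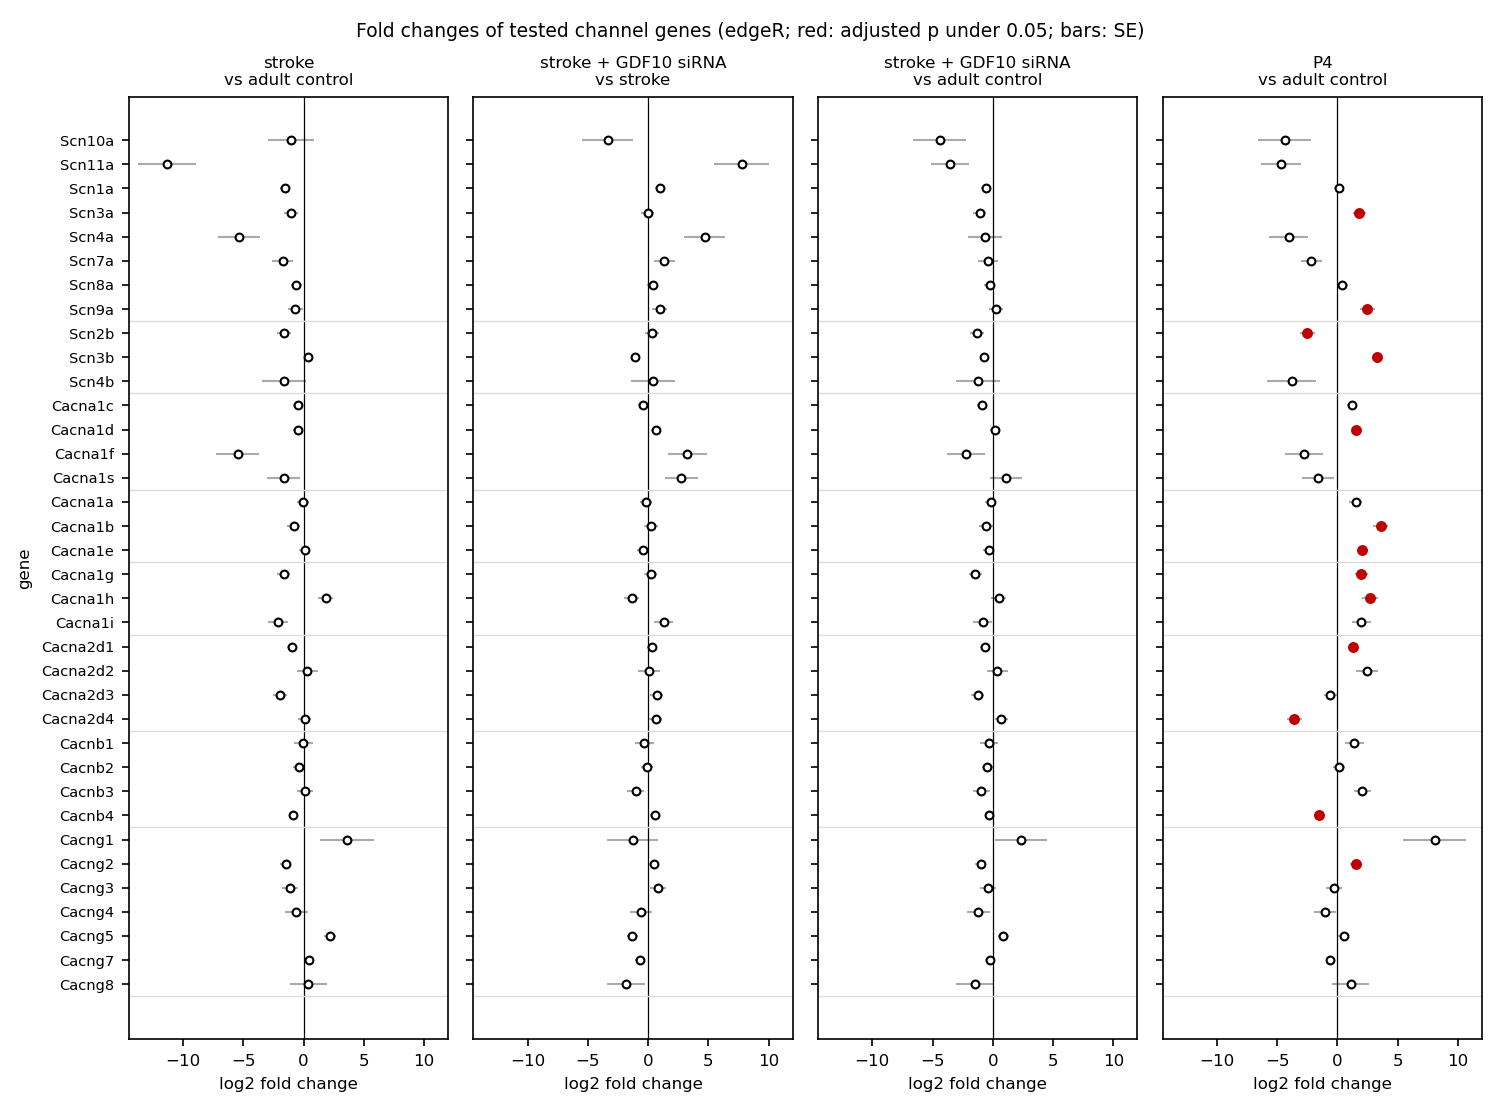
Fitted log2 fold changes of the tested channel genes reported here in the 4 comparisons, with standard errors as bars and called genes in red. Only the P4 panel has called genes, 10 to the right of 0 and 3 to the left, and the points with wide bars (Scn11a, Scn10a, Scn4a, Cacna1f, Cacng1) are genes with few counts, of which Scn11a in stroke and Cacng1 in adult control have none.

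P4 against adult control was the comparison in which channel genes differed most. In it 13 of the 38 tested channel genes were called, 10 higher and 3 lower, where 16.8% of all tested genes were called, 6.32% higher and 10.4% lower. The genes that rose encode the early-expressed sodium channel subunits Scn3a and Scn3b, the pain-related sodium channel Scn9a, calcium channel pores of 4 kinds (Cacna1b, Cacna1e, Cacna1d, Cacna1g and Cacna1h), the alpha2delta subunit Cacna2d1 and the TARP Cacng2. The genes that fell were Scn2b, Cacna2d4 and Cacnb4. The median log2 fold change of the 38 was 0.46, beside -0.16 over all genes tested. The libraries of the 2 groups did not overlap for 21 of the 38, 15 higher and 6 lower, where 16.1% of all genes were higher without overlap, 16% lower and 32.1% either. Neuronal and glial markers moved with this comparison as well. The median log2 fold change was 1.58 over the 12 pan-neuronal markers, of which 6 were called higher, and -8.66 over the 10 oligodendrocyte markers, all 10 called lower. Astrocyte markers took 0.486% of counts in adult control and 0.0456% in P4. The part of these shifts in the channel gene results was not tested. In such bulk samples a change in the share of cells of a type and a change in RNA per cell cannot be told apart.

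Among sodium channel pores, 2 of 9 were called, both higher in P4. Scn3a (chr2:65457118-65567627, minus strand) was at 57.3, 49.9 and 201 CPM in adult control and at 277, 290 and 523 in P4. Its log2 fold change was 1.82 ± 0.57 (SE, edgeR, adjusted p = 0.0379), and all 3 P4 libraries lay above the highest control, which was adult control 3. Scn9a, which is best known from sensory neurons, was at 6.3, 3.01 and 7.87 CPM in adult control and at 22.6, 24 and 48.4 in P4, a log2 fold change of 2.47 ± 0.63 (adjusted p = 0.0139). Its exons overlap those of Gm13629 on the opposite strand, and no source used here gives the strand setting of the counting. The pores of mature neurons gave other values. Scn1a was at 57.6 ± 16.3 CPM in adult control and 62.6 ± 3.54 in P4 (log2 fold change 0.12 ± 0.37, adjusted p = 0.873), and Scn8a at 172 ± 87.7 and 226 ± 124 CPM (0.39 ± 0.45, adjusted p = 0.62). Scn3a, Scn1a, Scn9a and Scn7a lie in one cluster on chromosome 2. Scn7a, a sodium-sensing relative of the voltage-gated pores, was at 7.85 ± 5.61 CPM in adult control and 1.75 ± 1.78 in P4 (adjusted p = 0.113), so fitted values within the cluster ran in both directions. The muscle and sensory neuron pores Scn4a, Scn10a and Scn11a had P4 means between 0.422 and 0.524 CPM and none was called.

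The sodium channel beta subunits held the smallest adjusted p of all 38 genes in this comparison. Scn3b (chr9:40269217-40291618, plus strand) was at 36.1, 25.5 and 27.5 CPM in adult control and at 308, 360 and 224 in P4. The lowest P4 library was thus far above the highest control, and the log2 fold change was 3.32 ± 0.38 (edgeR, adjusted p = 2.38e-05). Scn2b (chr9:45117782-45130070, plus strand), a beta subunit that links covalently to the pore, went the other way. It was at 26.2, 15.3 and 38.2 CPM in adult control and at 4.66, 7.02 and 2.22 in P4, a log2 fold change of -2.51 ± 0.62 (adjusted p = 0.011) with no overlap. Scn4b, at 2.04 ± 1.95 and 0.149 ± 0.0931 CPM, was not called.

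Of the presynaptic calcium channel pores, 2 of 3 were called. Cacna1b (chr2:24603887-24763152, minus strand), the N-type pore, was at 62, 31.8 and 24.1 CPM in adult control and at 426, 453 and 544 in P4. This log2 fold change of 3.59 ± 0.63 (edgeR, adjusted p = 0.000987) was the largest rise among the called channel genes. Cacna1e (chr1:154390731-154884501, minus strand), the R-type pore, was at 125, 116 and 44.1 CPM in adult control and at 390, 504 and 295 in P4 (2.06 ± 0.47, adjusted p = 0.00639). Cacna1a, the P/Q-type pore, was at 33.1 ± 17.1 CPM in adult control and 94.3 ± 34.4 in P4 and just missed the threshold (1.50 ± 0.50, adjusted p = 0.0533), although the groups did not overlap.

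The T-type pores Cacna1h (chr17:25374285-25433783, minus strand) and Cacna1g (chr11:94408391-94474198, minus strand) were both called higher. Cacna1h was at 7.22 ± 4.38 CPM in adult control (SD, n = 3) and at 60.6, 61.6 and 18.7 in P4, with P4 6 well below the other 2 P4 libraries but above every control (2.69 ± 0.64, adjusted p = 0.00881). Cacna1g was at 15.3, 17.2 and 32.2 CPM in adult control and at 94.1, 117 and 45.4 in P4, again lowest in P4 6 (1.99 ± 0.56, adjusted p = 0.0233). The third T-type gene, Cacna1i, was at 14.8, 6.81 and 3.54 CPM in adult control and at 40.8, 50.6 and 9.13 in P4, and its groups overlapped (adjusted p = 0.109). Among L-type pores, Cacna1d (chr14:30039939-30491455, minus strand) was called, with 24.3, 27.4 and 33.4 CPM in adult control against 101, 89.9 and 63.8 in P4 (1.58 ± 0.40, adjusted p = 0.0138). Cacna1c, the main L-type pore of brain and heart, was at 67.4 ± 7.61 and 157 ± 61 CPM with no overlap (1.22 ± 0.41, adjusted p = 0.0568). Cacna1f and Cacna1s, known from retina and skeletal muscle, were below 5 CPM in most libraries and were not called. Exons of Cacna1d and Cacna1h overlap those of Chdh and Tpsg1 on the opposite strand, so part of their counts may belong to those genes if strand was not used.

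Auxiliary calcium channel subunits moved in both directions. Cacna2d1 (chr5:15934691-16374511, plus strand), a binding site of gabapentin, was at 287, 152 and 463 CPM in adult control and at 515, 584 and 1150 in P4 (1.32 ± 0.41, edgeR, adjusted p = 0.0368). Cacna2d4 (chr6:119236526-119352407, plus strand), known from retina, was at 11.3, 14.4 and 10.5 CPM in adult control and at 0.505, 0.674 and 1.9 in P4, the lowest group by far (-3.59 ± 0.62, adjusted p = 0.000935). Cacna2d2 was at 9.49 ± 8.82 and 53 ± 25.6 CPM without being called (adjusted p = 0.0913). Cacnb4 (chr2:52428320-52676831, minus strand), the beta subunit whose loss causes ataxia in mice, was at 482, 258 and 842 CPM in adult control and at 160, 167 and 228 in P4, so that the highest P4 library stood just under the lowest control (-1.51 ± 0.41, adjusted p = 0.0195). Cacnb3, another beta subunit, was at 21.3 ± 14.7 and 90.3 ± 47.2 CPM (2.08 ± 0.71, adjusted p = 0.0596). Cacnb1 was at 7.42 ± 5.18 and 19.6 ± 11.6 CPM, Cacnb2 at 18.5 ± 7.12 and 20.5 ± 7.98 and Cacna2d3 at 37.1 ± 28.5 and 24.4 ± 7.67, none of them called. In the gamma family Cacng2, the TARP stargazin, was at 17.9, 10.4 and 27.4 CPM in adult control and at 60.5, 54.6 and 43.8 in P4 (1.52 ± 0.46, adjusted p = 0.0335). Cacng1, the muscle calcium channel subunit, had 0 counts in adult control and 122 in P4, a level at least 25.2-fold higher that was not called (adjusted p = 0.0513). The other tested gamma genes, Cacng3, Cacng4, Cacng5, Cacng7 and Cacng8, were not called; the most abundant of them, the TARP Cacng7, was at 80.2 ± 40 CPM in adult control and 53.5 ± 7.19 in P4.

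Which of these calls were made depended on single libraries. Without P4 4 the count of called channel genes was 7, without P4 5 or without adult control 1 it was 8, and without adult control 3, the library that stood apart, it was 12. Over all genes the calls moved from 3001 to 1852, 1970, 2530 and 3099 in the same order. DESeq2 called 20 of the 35 channel genes to which it gave an adjusted p, where it called 28.2% of all such genes, and limma voom called 28 of 38, where it called 52.4% of all genes. Cacna1b, Cacna1e, Cacna1h, Cacna2d4 and Scn3b kept their call in all 11 alternatives. The call was lost in 2 of the 11 for Scn2b and Scn9a, in 3 for Cacna1d, in 4 for Cacna1g and Cacnb4, in 5 for Cacna2d1 and Cacng2 and in 7 for Scn3a. In the same comparison the authors' deposited table had 20 of the 39 rows under a false discovery rate of 0.05, 15 higher and 5 lower, where it had 15.4% of all its rows.

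**Figure D3:**
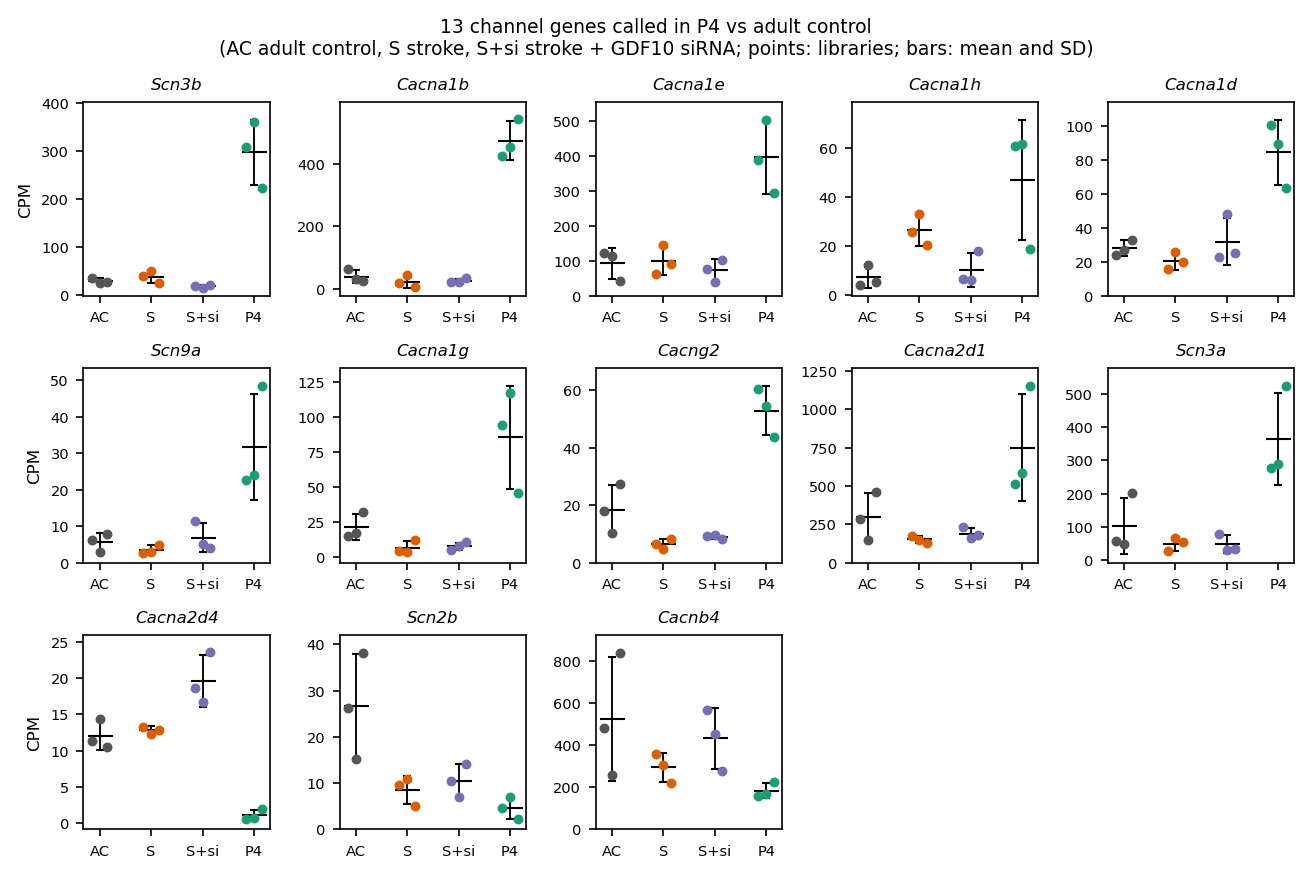
CPM of the 13 channel genes called in P4 against adult control, with each library as a point and group mean and SD as bars, in adult control (AC), stroke (S), stroke with GDF10 siRNA (S+si) and P4. In the first 10 panels every P4 point lies above every adult control point, and in the last 3 (Cacna2d4, Scn2b and Cacnb4) below.

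Sequence just upstream of the annotated start was available for 29 of the 39 genes, as 39 windows of 250 bases from RefSeq (GRCm38.p6, the mm10 build). Some genes had more than 1 window. Some windows, such as those of Cacna1e and Cacng3, lay wholly inside annotated exons of their own gene. All are kept in the medians and shares below. The 4 windows printed come from genes with 1 window nearly free of exon bases. Scn11a was left out because 1 library held most of its counts. Windows of genes that were called together or had a small p were compared to see whether they look alike. Capitals mark the GC box GGGCGG or its reverse complement CCGCCC, and each window is written 5′ to 3′ on the strand of its gene. The first pair belongs to Cacna1b (chr2:24763153-24763402, minus strand) and Scn9a (chr2:66634963-66635212, minus strand), both higher in P4. The second pair belongs to Scn1a (chr2:66440838-66441087, minus strand) and Cacna2d3 (chr14:29721865-29722114, minus strand), which were among the 4 smallest p-values in stroke against adult control.
Cacna1b: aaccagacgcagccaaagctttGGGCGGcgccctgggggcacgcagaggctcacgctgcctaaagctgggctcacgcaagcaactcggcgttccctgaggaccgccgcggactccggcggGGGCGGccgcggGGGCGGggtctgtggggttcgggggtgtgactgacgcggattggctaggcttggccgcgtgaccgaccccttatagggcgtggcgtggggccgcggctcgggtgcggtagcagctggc
Scn9a: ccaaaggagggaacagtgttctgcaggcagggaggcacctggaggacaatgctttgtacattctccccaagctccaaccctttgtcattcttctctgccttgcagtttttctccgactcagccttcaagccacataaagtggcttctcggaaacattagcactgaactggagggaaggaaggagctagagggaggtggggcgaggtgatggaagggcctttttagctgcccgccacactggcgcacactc
Scn1a: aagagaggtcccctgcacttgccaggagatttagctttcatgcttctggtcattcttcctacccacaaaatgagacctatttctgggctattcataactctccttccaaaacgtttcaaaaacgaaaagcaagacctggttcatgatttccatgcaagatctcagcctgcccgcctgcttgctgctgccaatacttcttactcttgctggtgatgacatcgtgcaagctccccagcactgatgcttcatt
Cacna2d3: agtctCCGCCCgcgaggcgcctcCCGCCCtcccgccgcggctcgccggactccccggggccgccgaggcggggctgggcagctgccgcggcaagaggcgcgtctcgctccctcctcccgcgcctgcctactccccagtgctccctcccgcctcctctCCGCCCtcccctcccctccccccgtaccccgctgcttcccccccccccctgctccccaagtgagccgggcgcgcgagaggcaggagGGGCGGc
Cacna1b holds 3 GC boxes and 29 CpG dinucleotides, and Cacna2d3 holds 4 and 30. Scn9a and Scn1a hold no GC box and 5 and 4 CpG dinucleotides, so each pair joins a CpG-rich and a CpG-poor window. Over all 39 windows the median was 8 CpG, ranging from 0 to 50, beside 6 over the 32851 windows of all genes. A GC box, on either strand, was in 15 of the 39 windows (38.5%) and in 32.7% of all windows. The TATA box TATAAA, on either strand, was in 1 of the 39 (2.6%) and in 12.4% of all windows. These matches describe the letters in the windows and say nothing about binding.

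Stroke against adult control gave 0 called channel genes of 38, where 0.704% of all tested genes were called, 0.486% higher and 0.218% lower. At an unadjusted p below 0.05 there were 12 channel genes, 2 higher and 10 lower. Over all genes 15.9% passed, 978 genes higher and 1874 lower, so lower values were also more frequent there. DESeq2 called 10 of the 35 channel genes with an adjusted p, where it called 7.72% of all such genes, and limma voom called 15 of 38, where it called 18.1% of all genes. The authors' deposited table had 6 rows under a false discovery rate of 0.05, where it had 3.02% of all its rows: Cacng5 higher, and Scn1a, Cacna2d3, Cacna1f, Scn4a and Scn11a lower. The median log2 fold change of the 38 was -0.75, beside -0.08 over all genes. All 9 sodium channel pores and all 4 L-type pores had fitted values below 0, as did 27 of the 38 and 9463 of all 17909 genes. The 2 groups did not overlap for 11 of the 38 genes, 2 higher and 9 lower, where 11% of all genes were higher without overlap, 9% lower and 20% either. Over the pan-neuronal markers the median was -0.80, and they took 0.208% to 0.637% of counts in adult control beside 0.164% to 0.2% in stroke. Of the 10 excitatory neuron markers 2 were called lower and of the 9 astrocyte markers 4. Other markers went the other way. The median was 0.70 over the 10 oligodendrocyte markers, of which 1 was called higher. It was 1.16 over the 8 oligodendrocyte precursor markers, of which 0 were called. The part of these marker shifts in the channel gene values was not tested.

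The channel gene with the smallest p in this comparison was Cacng5, an atypical TARP. It was at 8.17, 17.3 and 7.19 CPM in adult control and at 45.6, 52.4 and 52.2 in stroke. The stroke libraries were close to each other and all above the highest control, with a log2 fold change of 2.20 ± 0.49 (edgeR, adjusted p = 0.0558). With the siRNA label Cacng5 was at 12.1, 19 and 29.2 CPM and in P4 at 15.2, 19.2 and 12.7, so the 3 stroke libraries were the highest of the 12. Cacna1h was the other of the 2 genes that were higher at an unadjusted p below 0.05, at 25.8, 32.9 and 20.2 CPM beside 7.22 ± 4.38 in adult control (1.86 ± 0.62, edgeR, adjusted p = 0.181). The share of counts from Rn45s, a ribosomal RNA gene, also differed between libraries. It was 2.44%, 2.11% and 2.11% in stroke, and 0.427%, 2.08% and 0.0964% in adult control. In siRNA-labelled libraries it was 0.329%, 0.304% and 2.72%, and P4 had at most 0.349%. Adult control 2 and siRNA-labelled library 3 were the highest of their groups for Cacng5 and Cacna1h. In P4, Cacna1h reached 61.6 CPM. A link between Rn45s and these genes was not tested.

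Among genes with lower values, Scn11a, a sensory neuron pore, had 343 counts in adult control and 0 in stroke, at least 121-fold lower (edgeR, adjusted p = 0.059). Adult control 3 held 81.6% of those 343 counts, and its level was 31.9 CPM beside 1.15 and 0.845 in adult control 1 and 2. Cacna1f had the same shape, with 36.8 CPM in adult control 3 and 1.47 and 0.199 in the others. Scn4a, the skeletal muscle pore, was at 6.78, 0.497 and 17.7 CPM in adult control and at 0.207, 0.032 and 0.38 in stroke (adjusted p = 0.17).

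Scn1a, the pore best known from inhibitory interneurons, rested on no single library. It was at 76, 51.6 and 45.1 CPM in adult control and at 20.8, 16.8 and 21 in stroke, a log2 fold change of -1.56 ± 0.38 (edgeR, adjusted p = 0.0833) with no overlap. Its level was 53.6, 25.2 and 36 CPM in the siRNA-labelled group. Inhibitory neuron markers took 0.0138% of counts in adult control and 0.00787% in stroke, with overlapping ranges (0.0111% to 0.0166% and 0.00435% to 0.0118%). Libraries with the siRNA label had a lower mean still, 0.00402%, although Scn1a stood above its stroke level there. Excitatory neuron markers had a stroke mean of 0.0322%, beside 0.0981% in the controls. A link between Scn1a and either marker set was not tested. Cacna2d3, an alpha2delta subunit, was at 23, 18.4 and 69.9 CPM in adult control and at 12.3, 7.46 and 8.52 in stroke (-1.97 ± 0.57, adjusted p = 0.133), where the highest value was again adult control 3. Other genes with an unadjusted p below 0.05 and lower values in stroke were Cacng2 (18.6 and 6.55 CPM), Cacna1g (21.6 and 6.83), Scn2b (26.6 and 8.55), Cacna1i (8.38 and 1.9) and Cacna2d1 (301 and 153). Leaving out adult control 2 gave 3 called channel genes, Cacng5 higher and Scn11a and Cacna2d3 lower. Calls over all genes rose from 126 to 548 in that fit. Leaving out adult control 3 gave 0 channel genes, with 125 over all genes.

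**Figure D4:**
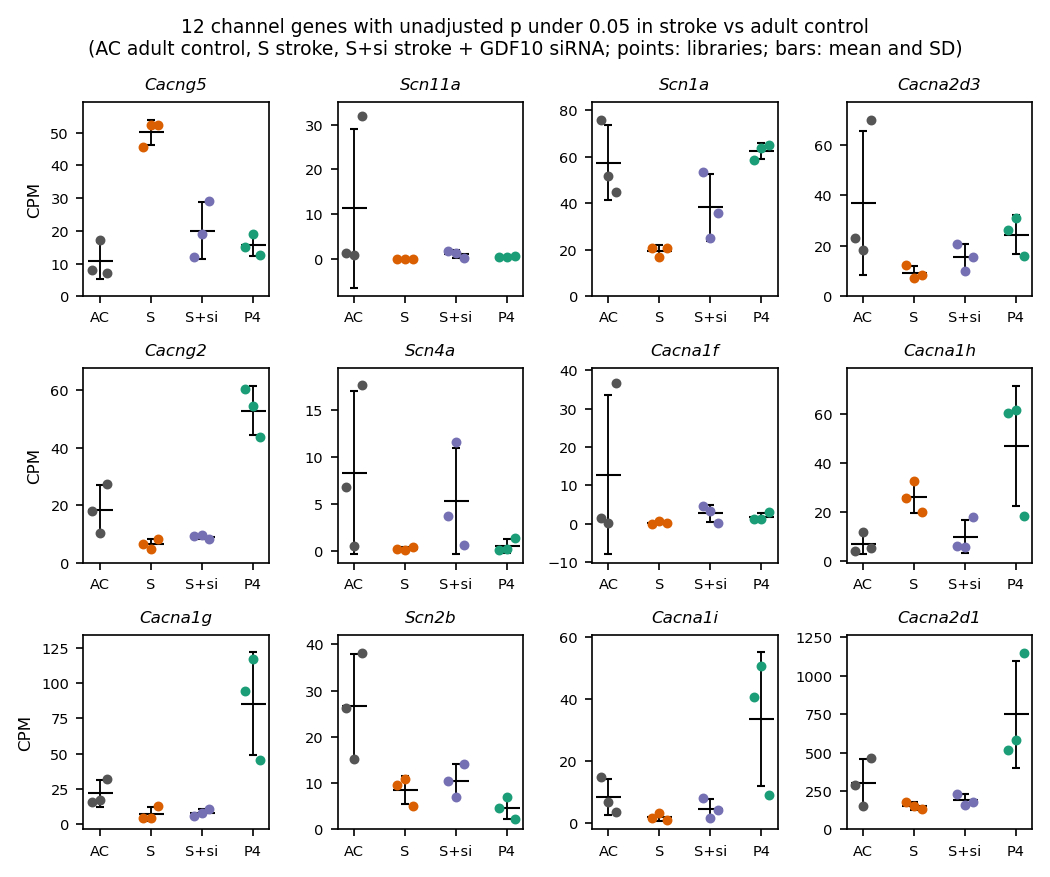
CPM of the 12 channel genes with an unadjusted p below 0.05 in stroke against adult control, none of which was called; points are libraries, bars are mean and SD, and groups are adult control (AC), stroke (S), stroke with GDF10 siRNA (S+si) and P4. The 3 stroke points lie above all others for Cacng5, and 1 adult control point carries the mean for Scn11a and Cacna1f.

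The siRNA-labelled group against stroke asked whether the transcripts differed when the Gdf10 siRNA was given with the stroke. Here 0 of 38 channel genes were called, where 0.00558% of all genes (1 gene, which was lower) were called. At an unadjusted p below 0.05 there were 6 channel genes, 3 higher and 3 lower. Over all genes 7.37% passed, 843 genes higher and 476 lower. DESeq2 called 0, where it called 0.942% of all genes with an adjusted p. Limma voom called 4 (Scn1a and Scn11a higher, Cacna1h and Cacng5 lower), where it called 4.7% of all genes, and 0 were called in the authors' deposited table. The median log2 fold change was 0.28, beside 0.04 over all genes, and 9 of 38 genes did not overlap between groups, 5 higher and 4 lower, where 7.77% of all genes were higher without overlap, 8.11% lower and 15.9% either. Scn11a had 49 counts in the siRNA-labelled group against 0 in stroke, at least 18.9-fold higher (edgeR, adjusted p = 0.549), with 1.73, 1.16 and 0.0289 CPM. Scn3b was at 40.3, 49.8 and 24.1 CPM in stroke and at 18.1, 14.4 and 21.6 in the siRNA-labelled group (-1.08 ± 0.35, adjusted p = 0.574), with no overlap. Scn4a was at 3.65, 11.6 and 0.578 CPM in the siRNA-labelled group beside 0.38 or less in stroke (4.69 ± 1.68, adjusted p = 0.594). For Cacng5 the fitted difference was -1.31 ± 0.47 (adjusted p = 0.597), for Scn1a 0.97 ± 0.38 (adjusted p = 0.627) and for Cacna1h -1.37 ± 0.61 (adjusted p = 0.659), all on the log2 scale. All 3 are genes with a small p in stroke against adult control, and both comparisons use the same stroke libraries. Microglia and macrophage markers took 0.0325% to 0.11% of counts in stroke and 0.139% to 0.252% in the siRNA-labelled group.

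The siRNA-labelled group against adult control also gave 0 called channel genes of 38, where 0.117% of all genes were called, 0.0838% higher and 0.0335% lower. At an unadjusted p below 0.05 there were 6, all lower, where 8.36% of all genes passed, 623 genes higher and 874 lower. DESeq2, limma voom and the authors' deposited table each called 0 channel genes. DESeq2 called 2.07% of all genes with an adjusted p and limma voom 2.38% of all genes. The median log2 fold change was -0.58, beside -0.02 over all genes, and 7 of 38 genes did not overlap, 1 higher and 6 lower, where 6.35% of all genes were higher without overlap, 4.47% lower and 10.8% either. The pan-neuronal markers had a median of -0.59, the 9 inhibitory neuron markers tested -1.51, the astrocyte markers -2.00 (1 of 9 called lower) and the microglia and macrophage markers 1.41. Astrocyte markers took 0.486% of counts in adult control and 0.119% in the siRNA-labelled group, and microglia and macrophage markers 0.0828% and 0.179%. The part of these marker shifts in the channel gene values was not tested. The smallest p belonged to Cacna1g, at 5.38, 7.7 and 10.6 CPM beside 15.3 or more in every control (-1.44 ± 0.55, edgeR, adjusted p = 0.481). Cacna2d3 was at 20.9, 9.9 and 15.4 CPM and overlapped with the controls (-1.26 ± 0.56, adjusted p = 0.569), and without adult control 3 the fitted value was -0.43 (adjusted p = 0.943). Scn2b was at 10.5, 7.06 and 14.1 CPM, below every control (-1.33 ± 0.59, adjusted p = 0.572). Cacna2d4 was the gene whose siRNA-labelled libraries, at 18.6, 16.7 and 23.6 CPM, all lay above the controls and also above the stroke libraries at 13.3, 12.3 and 12.9, without being called in either comparison.

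The makeup of each subunit class, as each gene's share of the class on the per-length scale, is a description with no test. Scn3b took 95.2% ± 0.726 of the sodium channel beta class in P4, 38.4% ± 3.71 in adult control, 59.2% ± 3.46 after stroke and 43.1% ± 5.72 with the siRNA label (SD, n = 3). Scn2b took 1.66% in P4 and 40.4% in adult control. Among pores, Scn3a took 56.1% ± 1.41 of the sodium channel alpha class in P4 and 25.5% ± 12.6 in adult control, and Scn8a 26.5% ± 3.81 and 38.6% ± 17.2; Scn2a1 is not part of this class share. Cacna1b took 66.7% ± 8.93 of the P/Q-, N- and R-type class in P4 and 38.2% ± 9.83 in adult control. In the T-type class Cacna1h took 82.2%, 82.5% and 61.1% of it in the 3 stroke libraries, beside 20% ± 12.5 in adult control, 32.3%, 40.1% and 55.6% in the siRNA-labelled group and 31.6%, 27.4% and 26.2% in P4. Every stroke library was thus above all 9 others for Cacna1h, while Cacna1g held the largest mean share in adult control (56.2%) and in P4 (52.9%). In the gamma family the stroke libraries were likewise above all others for Cacng5, at 17.4%, 23.9% and 19.1%, and below all others for Cacng2, at 1.7%, 1.51% and 2.16%. Among calcium channel beta subunits, Cacnb4 took 84.3% ± 11.7 in adult control and 44.5% ± 19.3 in P4, and Cacnb3 12.1%, 17.6% and 1.15% in the adult controls and 43.7% ± 17.5 in P4. P4 6 differed from the other 2 P4 libraries here, with 66.8% for Cacnb4.

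**Figure D5:**
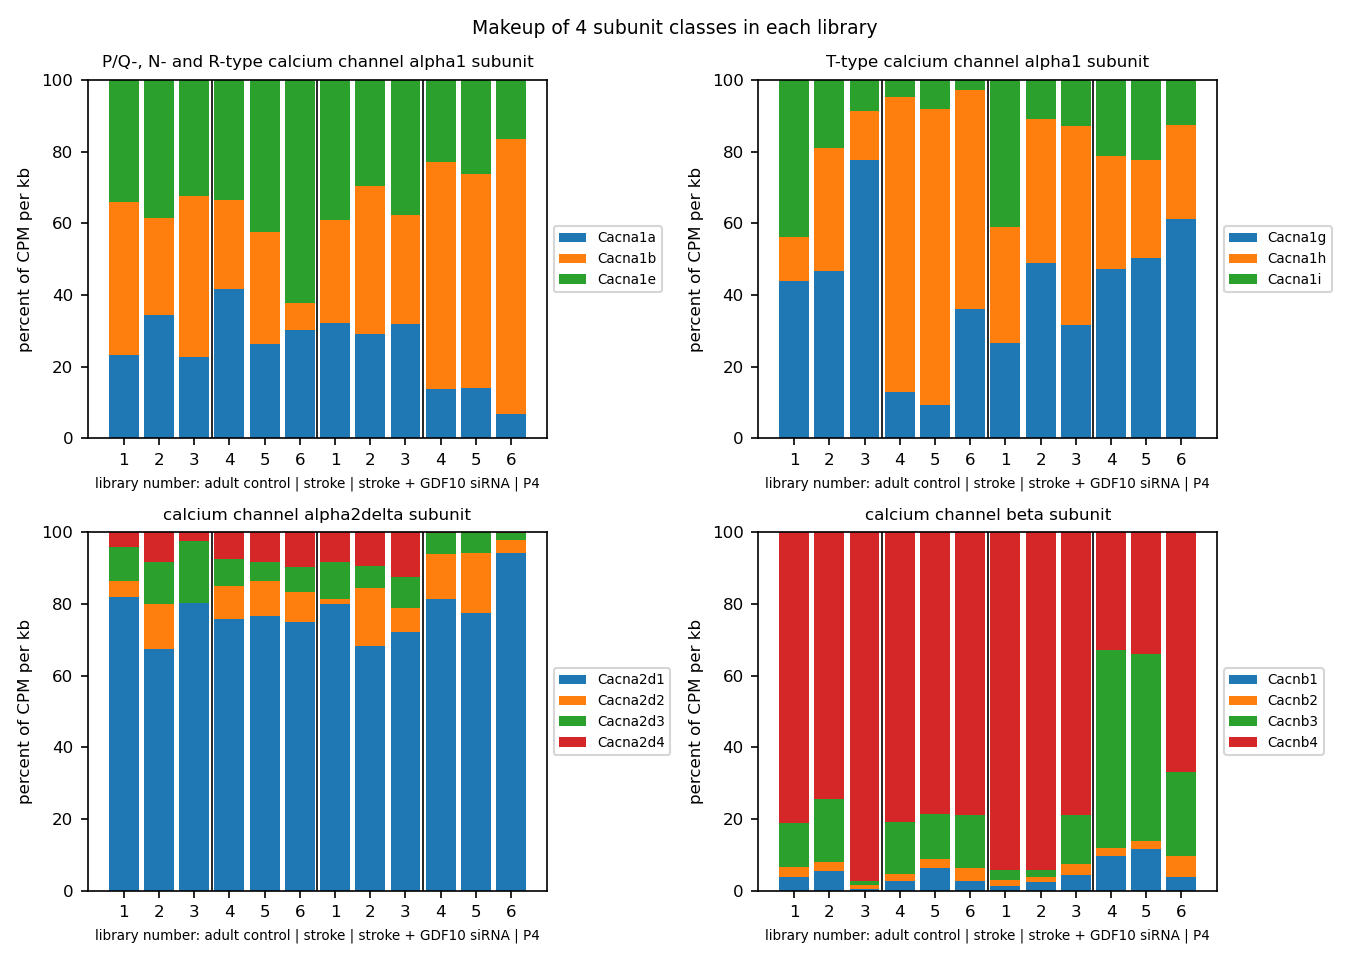
Percent of the summed CPM per kb that each gene takes in its class, for P/Q-, N- and R-type, T-type, alpha2delta and calcium channel beta subunits, in each library by group. Cacna1b takes the largest part of the P/Q-, N- and R-type bar in the 3 P4 libraries, and Cacna1h takes the largest part of the T-type bar in the 3 stroke libraries.

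Channel partners were read from a list of proteins that bind, anchor, inhibit or regulate these channels, of which 30 were in the table. In P4 against adult control 10 of the 30 were called, 8 higher and 2 lower, where 16.8% of all genes were called, 6.32% higher and 10.4% lower. Those with the smallest p included Rest, Scn2a1 and Calm2. Rest, a repressor of neuronal genes that include sodium channels, was at 24.9, 32.7 and 51.9 CPM in adult control and at 7.92, 5.21 and 4.75 in P4 (-2.61 ± 0.47, edgeR, adjusted p = 0.00126). Oligodendrocyte and astrocyte markers also fell in P4 against adult control, and a link between them and Rest was not tested. Scn2a1 (chr2:65620771-65767447, plus strand), the pore of axon initial segments and early axons, was at 232, 113 and 112 CPM in adult control and at 597, 846 and 526 in P4 (2.11 ± 0.38, adjusted p = 0.00128). Calm2, which encodes a calcium sensor bound to both channel kinds, was at 1310, 572 and 1900 CPM in adult control and at 3200, 3070 and 6440 in P4 (1.75 ± 0.41, adjusted p = 0.00773). In the other 3 comparisons 0 of the 30 partners were called by edgeR, while 8, 3 and 3 of them had an unadjusted p below 0.05 in stroke against adult control, siRNA-labelled against stroke and siRNA-labelled against adult control, where 15.9%, 7.37% and 8.36% of all genes passed. Nfasc, which encodes neurofascin, an organiser of axon initial segments and nodes that oligodendrocytes also make, was at 739, 2100 and 644 CPM in adult control and at 6010, 4020 and 4800 in stroke (2.09 ± 0.49, adjusted p = 0.0701). In the siRNA-labelled group it was at 1310, 1140 and 2630 CPM (-1.55 ± 0.48 against stroke, adjusted p = 0.551). Gem, an inhibitor of calcium channels, was at 2.83, 4.36 and 1.68 CPM in stroke and at 9.34, 44.6 and 12.3 in the siRNA-labelled group (2.90 ± 0.82, adjusted p = 0.497). Stac2, a regulator of L-type channels, was at 14 ± 2.16 CPM in adult control and 2.09 ± 0.57 in the siRNA-labelled group (-2.74 ± 0.70, adjusted p = 0.245).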

How the data were processed

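The deposited table gives, per gene symbol and library, raw read counts made by the authors, with their normalized values, log2 fold changes, p-values and false discovery rates. The authors' comparisons were only compared with the tests made here, and 30 per-sample columns were not used. Per the submitters' processing notes, CASAVA 1.8.2, edgeR and the mm10 build were used. RNA was amplified with the Ovation system and read as 69 bp pairs, per the labels' protocols, and amplified reads are not independent molecules. Aligner, counter, gene annotation and strand use: not given in the sources used here. One P4 library, replicate 4, has a column headed P3, which was assigned to it by replicate number.

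Counts of all 12 libraries were fitted together with edgeR 4.0.16 in R 4.3.3 (filterByExpr by group, TMM factors, 1 mean per group, quasi-likelihood F test, Benjamini-Hochberg over all genes tested). DESeq2 gave some genes no adjusted p, and its shares leave them out. The steps were also run on simulated counts, which held no outlying library and no shift in cell makeup, so that run cannot speak to either. Alternatives were RLE size factors, DESeq2 1.42.0, limma 3.58.1 voom with quality weights, no filter, the 2 groups compared alone, each library left out, and a replicate block. No pair of replicates agreed within sampling noise (chi-square per degree of freedom 51.1 to 419). The most alike pair was P4 4 and P4 5, with a correlation of log2 CPM of 0.989. Each was less like P4 6, at 0.897 and 0.895. The labels do not say whether P4 4 and P4 5 came from separate animals. Coordinates and exon lengths come from GENCODE on GRCm38 (mm10), in which all 39 genes were found by symbol.

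The members and lists were chosen with earlier results of these data known. A few genes are counted in totals but not reported here. Every other member is accounted for, mostly with values by library for those called in any comparison and for the 3 with the smallest p in each, and otherwise with means or ranges. At most 4 partners are named per comparison, by smallest p.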

Additional observations from a re-analysis of the deposited data

How the results depend on the processing

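In P4 against adult control the count of called channel genes was 13, 13 with RLE size factors, 14 without a filter and 9 with only the 2 groups fitted. It was 20 with DESeq2 and 28 with limma voom, and ranged from 7 to 15 when each library was left out. Calls over all genes moved too, from 3001 to 4540 with DESeq2, 9390 with limma voom, 1639 with only the 2 groups fitted and 1852 to 3099 when each library was left out. With RLE factors Cacna2d1 and Scn3a were not called and Cacna1a and Cacnb3 were. In stroke against adult control the count was 0, but 10 with DESeq2 and 15 with limma voom (1293 and 3249 over all genes, beside 126). Without a filter it was 1 (Scn11a), beside 158 over all genes. Over libraries left out it ranged from 0 to 3, and from 31 to 548 over all genes. For the siRNA-labelled group against stroke it was 0, and 4 with limma voom (841 over all genes, beside 1). For the siRNA-labelled group against adult control it was 0 in every alternative run. The cause of these differences between tools was not tested. RLE factors moved the median log2 fold change of all genes from -0.08 to -0.19 in stroke against adult control and by less in the other comparisons.

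The siRNA-labelled and adult control libraries share the numbers 1 to 3. Deviations of same-numbered libraries from their group means correlated at 0.06, -0.19 and -0.34. Pairs with unlike numbers ran from -0.32 to 0.48. With 3 libraries per group, such correlations cannot show whether the numbers pair libraries. With the number as a replicate block the count of called channel genes was again 0.

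For the 22 fold changes of single genes that were followed, 0 of 244 values changed sign, 32 lost their call and 9 gained one. Depth limits the genes with few counts most: Scn4a, Scn10a, Scn11a, Cacna1f, Cacna1s, Cacng1 and Cacng8 rested on few reads.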

Other observations

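Other members of the list of channel partners that were called in P4 against adult control were named after their values were seen. Fgf13, an intracellular partner of sodium channels, was at 25.9 ± 17.9 CPM in adult control and 213 ± 72.6 in P4 (log2 fold change 3.05 ± 0.83, edgeR, adjusted p = 0.0201). Sptbn4, a spectrin of axon initial segments, was at 4.14 ± 2.89 and 27.1 ± 12.6 CPM (2.70 ± 0.71, adjusted p = 0.0166). Nedd4l, a ubiquitin ligase that acts on sodium channels, was at 134 ± 63.3 and 307 ± 70.5 CPM (1.20 ± 0.35, adjusted p = 0.0294). Nfasc was the other partner that fell beside Rest, from 1160 ± 815 to 302 ± 123 CPM (-1.94 ± 0.48, adjusted p = 0.0122). Oligodendrocyte markers fell as well in this comparison. Their mean share was highest in siRNA-labelled libraries, at 8.7% of counts, where Nfasc was at 1690 ± 818 CPM. After stroke Nfasc was at 4940 ± 1000 CPM with a marker share of 5.7%, beside 5.63% in the controls. The separate list of oligodendrocyte precursor markers had its highest mean share after stroke, at 0.371%, beside 0.201% in the controls. Its mean was 0.188% with the siRNA label and 0.0152% for P4 libraries. Whether Nfasc followed either marker list was not tested.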
